A study of Mus musculus with 6 samples.

Results

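Transcripts of 5 gene families that are best known from the oocyte and the early embryo, Pramel (with the older name Pramef), Nlrp (older name Nalp), Oog, Obox and Omt2, were examined in mouse embryonic stem cells with and without an intact allele of Lsd1. Members were all probes whose gene symbol in the platform annotation, current or older, began with one of these names, whether detected or not. This gave 78 probes for 55 genes, out of 45281 probes on the array. The cells were E14 embryonic stem cells of strain 129/Ola, profiled as total RNA on Illumina bead arrays. All samples, controls included, carried at least 1 Δ3 allele of Lsd1, which is known to lack exon 3. In the control group, LSD1 Lox/Δ3, the other allele was the Lox allele, named for the loxP sites that allow its deletion (n = 3 arrays), and in the LSD1 Δ3/Δ3 group both alleles were Δ3 (n = 3 arrays). The series text calls the samples of a genotype biological replicates. Whether these came from distinct clones, how the deletion was induced and how long the cells had grown since are not stated, and the spread behind each p-value may be technical. The families were chosen by name, but selected on the higher signals of some of their probes in Δ3/Δ3 cells in this same contrast. The differences between genotypes below are therefore a description of these 6 arrays, and the counts of called members support no statement about the families as a class.

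LSD1, the product of Kdm1a, erases mono- and dimethylation of histone H3 lysine 4 and works within corepressor complexes. PRAMEL proteins are built of leucine-rich repeats and form a large family in mouse, with many copies in tandem clusters, and some act as substrate receptors of cullin ubiquitin ligases. In mouse stem cells PRAMEL7 is known to lower UHRF1 and with it DNA methylation. The Nlrp family holds both inflammasome sensors of innate immunity and a group expressed in oocytes, some of which, such as NLRP5 (MATER), belong to the subcortical maternal complex that embryos need for their first divisions. Oog genes are oocyte-expressed relatives of Pramel. Obox genes encode homeodomain transcription factors of the oocyte and early mouse embryo, and Omt2a and Omt2b were named for transcripts of oocyte maturation.

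Kdm1a transcript was lower in Δ3/Δ3 cells, by -1.56 ± 0.15 (SE) on the log2 scale (limma adjusted p = 0.0187). Its 1 probe read 1624, 1047 and 1339 raw signal units on the Δ3/Δ3 arrays and 5352, 3397 and 4026 on the Lox/Δ3 arrays, and whether it lies within exon 3 was not examined. Between 18506 and 19799 probes were detected per array, with Lox/Δ3 replicate 1 at the low end. The ES cell markers Pou5f1, Nanog, Sox2, Esrrb, Zfp42, Klf4, Tdgf1, Dppa5a, Utf1 and Dppa4 were all detected, so the labelled cell type was borne out by its defining transcripts. Log2 values below are background-corrected and quantile-normalized, "detected" means a detection p under 0.05, and a probe was tested when it was detected on at least 3 of the 6 arrays. A probe was called when its limma p, adjusted with Benjamini-Hochberg over all 19652 tested probes, was under 0.05, its change was at least 1.5-fold and the arrays of the genotypes did not overlap. Fewer cells with a transcript and less transcript per cell cannot be told apart in these bulk samples.

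The 3 Pramel genes with the largest differences had promoters that resembled each other, and these windows are shown first because the comparison returns to them. Promoter windows of 300 bases (250 before and 50 after the annotated start) came from RefSeq on GRCm38.p6, the genome of strain C57BL/6J rather than 129/Ola, and 48 of the 55 member genes had one. Pramel14 (chr4:143994320-143994619 on the minus strand), Pramel30 (chr4:144329999-144330298 on the plus strand) and Pramel7 (chr2:87492369-87492668 on the minus strand) share a run of 23 bases, which is in capitals and begins 74 to 76 bases before the start.
Pramel14: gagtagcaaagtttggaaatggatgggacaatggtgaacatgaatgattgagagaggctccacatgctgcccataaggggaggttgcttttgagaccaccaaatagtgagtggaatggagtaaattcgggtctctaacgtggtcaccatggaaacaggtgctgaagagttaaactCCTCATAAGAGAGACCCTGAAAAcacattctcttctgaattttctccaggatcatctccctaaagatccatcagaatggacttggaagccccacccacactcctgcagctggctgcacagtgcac
Pramel30: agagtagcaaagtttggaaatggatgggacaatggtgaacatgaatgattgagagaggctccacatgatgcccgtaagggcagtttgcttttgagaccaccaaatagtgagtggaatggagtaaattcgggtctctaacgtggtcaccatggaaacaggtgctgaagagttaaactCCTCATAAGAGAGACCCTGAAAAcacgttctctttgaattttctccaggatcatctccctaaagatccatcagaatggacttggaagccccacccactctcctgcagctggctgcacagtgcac
Pramel7: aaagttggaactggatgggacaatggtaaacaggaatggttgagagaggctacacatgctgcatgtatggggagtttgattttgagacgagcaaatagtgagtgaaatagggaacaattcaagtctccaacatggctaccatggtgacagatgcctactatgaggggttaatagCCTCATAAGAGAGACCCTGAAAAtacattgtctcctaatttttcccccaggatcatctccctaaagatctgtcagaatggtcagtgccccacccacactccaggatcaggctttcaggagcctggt
The windows of Pramel14 and Pramel30 were identical at 293 of 299 aligned bases (98.0%). The window of Pramel7, on another chromosome, matched Pramel14 at 234 of 283 aligned bases (82.7%) and Pramel30 at 231 of 282 (81.9%). No run that these 3 windows share is longer than the one in capitals. Another of the same length lies nearer the start and was neither marked nor searched for. The genes were picked for their differences. The rarity of the run in capitals in other windows was thus largely fixed in advance and tests nothing about genes that rose. The shared run, CCTCATAAGAGAGACCCTGAAAA, was searched on both strands of all 32851 windows in the RefSeq table and was found in these 3 alone (0.0091%).

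The windows of Pramel20 (chr4:143567217-143567516 on the plus strand) and Pramel31 (chr4:144357714-144358013 on the plus strand), family members whose mean signal was lower rather than higher in Δ3/Δ3 cells, are shown as a contrast. They were identical at 251 of 268 aligned bases (93.7%), and the capitals mark their longest common run, of 47 bases.
Pramel20: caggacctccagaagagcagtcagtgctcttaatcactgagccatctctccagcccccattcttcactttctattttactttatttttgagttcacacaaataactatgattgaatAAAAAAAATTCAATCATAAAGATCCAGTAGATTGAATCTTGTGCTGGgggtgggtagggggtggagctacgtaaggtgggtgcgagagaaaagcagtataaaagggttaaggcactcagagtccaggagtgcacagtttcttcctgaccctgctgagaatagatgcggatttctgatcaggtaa
Pramel31: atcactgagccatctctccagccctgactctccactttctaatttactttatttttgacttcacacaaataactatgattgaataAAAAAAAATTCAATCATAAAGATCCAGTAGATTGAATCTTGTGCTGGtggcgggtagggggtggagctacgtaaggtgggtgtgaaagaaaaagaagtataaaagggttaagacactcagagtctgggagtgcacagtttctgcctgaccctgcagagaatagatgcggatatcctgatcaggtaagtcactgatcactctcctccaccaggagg
That run occurred in 4 of the 32851 windows (0.0122%), the others being those of Gm13040 and Gm13057 on the same chromosome. Pramel37 and Pramel39 formed a further pair of near-copies, with 295 of 299 aligned bases identical (98.7%), and Pramel4 and Pramel17 matched at 217 of 252 (86.1%).

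**Figure D1:**
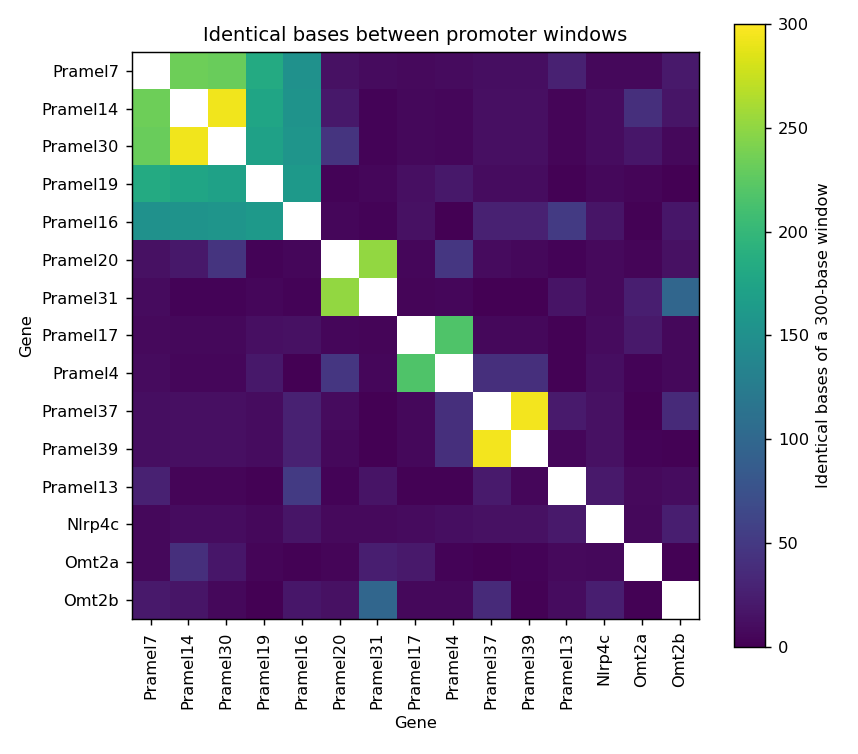
Number of identical bases between the aligned 300-base promoter windows of the 15 detected member genes that had one; each cell is a pair of genes and the white diagonal is left out. Pramel14 and Pramel30 (293 identical bases), Pramel37 and Pramel39 (295) and Pramel20 and Pramel31 (251) stand out, and Pramel7 is close to the first pair (234 and 231), whereas Nlrp4c, Omt2a and Omt2b resemble no other window as closely.

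The windows of the other genes that were called are shown for their CpG dinucleotides, in capitals, as sites that DNA methylation could occupy: Nlrp4c (chr7:6044911-6045210 on the plus strand), Omt2a (chr9:78313999-78314298 on the minus strand) and Omt2b (chr9:78327780-78328079 on the plus strand).
Nlrp4c: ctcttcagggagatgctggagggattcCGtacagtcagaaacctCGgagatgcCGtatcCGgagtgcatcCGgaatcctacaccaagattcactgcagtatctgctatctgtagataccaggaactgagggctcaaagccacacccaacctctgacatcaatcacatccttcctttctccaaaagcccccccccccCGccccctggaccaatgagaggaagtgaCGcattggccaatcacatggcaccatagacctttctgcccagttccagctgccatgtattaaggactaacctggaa
Omt2a: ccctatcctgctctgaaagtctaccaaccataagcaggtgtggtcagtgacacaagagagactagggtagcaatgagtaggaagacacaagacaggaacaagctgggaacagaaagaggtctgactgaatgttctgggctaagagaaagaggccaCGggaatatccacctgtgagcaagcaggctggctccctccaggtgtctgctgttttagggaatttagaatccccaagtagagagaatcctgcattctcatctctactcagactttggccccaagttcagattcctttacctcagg
Omt2b: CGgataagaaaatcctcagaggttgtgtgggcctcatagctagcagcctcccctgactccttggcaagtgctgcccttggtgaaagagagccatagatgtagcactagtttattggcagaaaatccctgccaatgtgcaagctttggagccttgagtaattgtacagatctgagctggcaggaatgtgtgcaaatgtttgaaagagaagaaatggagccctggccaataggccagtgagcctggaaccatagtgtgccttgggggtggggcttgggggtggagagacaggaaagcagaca
Nlrp4c had 7 CpG, and Omt2a and Omt2b had 1 each. Over the 52 windows of member genes the median was 2 CpG, against 7 over all 32851 windows, and the median GC content was 43.3% against 52.7%. Among genes with a window, the 5 called, the 10 detected but not called and the 33 not detected each had a median of 2 CpG. Obox6, Nlrp14, Pramel12 and Pramel36 were detected but had no window. Of motifs searched on both strands, CACGTG (an E-box of the MAX and MGA family) was in 0 of the 52 member windows and in 7.15% of all windows. GCGGGAA (an E2F core) was in 1 of 52 (1.92%) and in 4.6% of all. TAATTG (an element bound by the oocyte factor NOBOX) was in 11 of 52 (21.2%) and in 8% of all, and of the called genes in Omt2b alone. TATAAA (the letters of a TATA box) was in 11 of 52 (21.2%) and in 13.6% of all. It was counted on either strand and anywhere in the window, so a match need not be a TATA box. These matches describe letters and were not tested.

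Most members gave no signal above background in either genotype. Of the 78 probes, 23 (19 genes) were detected on at least 3 arrays and 54 were detected on none. The remaining probe, of the inflammasome gene Nlrp6, was detected on Lox/Δ3 replicate 1 alone. The 55 probes that were not tested read 42.3 to 109 raw units, with a median of 57.8. Between 22 and 23 member probes were detected on each Δ3/Δ3 array and between 19 and 20 on each Lox/Δ3 array. The Oog family was not detected: its 4 probes, for Oog2, Oog3 and Oog4, read 46.5 to 61.6 units and were detected on no array. Of the Obox family, 7 of 8 probes, for Obox1, Obox2, Obox3, Obox5 and Obox7, were not detected. Of the Nlrp family, 23 of 27 probes were not tested; they included all 8 probes of the inflammasome genes Nlrp1a, Nlrp3, Nlrp6, Nlrp10 and Nlrp12 and those of the oocyte genes Nlrp2, Nlrp4a, Nlrp4b, Nlrp4e, Nlrp4f, Nlrp4g, Nlrp5, Nlrp9a, Nlrp9b and Nlrp9c. Of the Pramel family, 13 genes had no tested probe: Pramel1, Pramel3, Pramel5, Pramel6, Pramel21, Pramel22, Pramel24, Pramel25, Pramel26, Pramel27, Pramel32, Pramel34 and Pramel48. Genotype differences below the background of the array were not measurable for these probes.

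**Figure D2:**
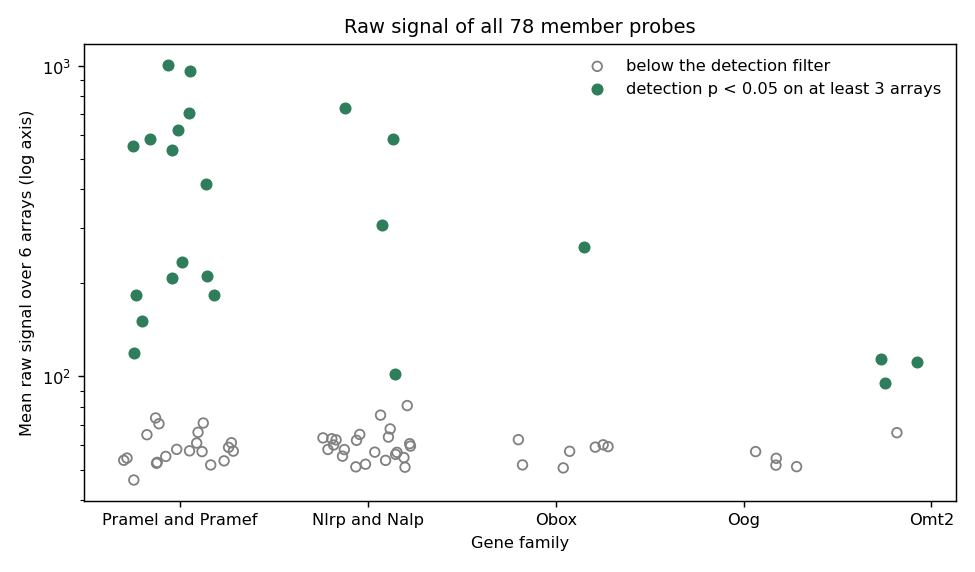
Mean raw signal over the 6 arrays (log axis) of each of the 78 probes, by family. Filled points are the 23 probes detected on at least 3 arrays and open points the other 55, which lie near background; the detected probes are mostly of the Pramel family (15), and the Oog family has none.

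Among the 23 tested probes, which stand for 19 genes, 6 rose in Δ3/Δ3 cells and none (0) fell in the limma fit. Over all tested probes 226 were called (1.15%): 177 of 19652 (0.901%) rose and 49 (0.249%) fell. At an unadjusted limma p under 0.05, 14 member probes were higher and 1, of Pramel17, was lower. Over all tested probes 3230 of 19652 passed this threshold in either direction. The median difference of the 23 probes was 0.58 on the log2 scale, against -0.025 over all tested probes. The groups did not overlap for 11 member probes, all higher in Δ3/Δ3. Of all tested probes, 10.4% were higher and 11.8% lower without overlap. Of the 23 probes, 2 were detected on Δ3/Δ3 arrays alone. The other Omt2a probe and the dimmer tested Nlrp4c probe were detected on 1 Lox/Δ3 array and Pramel7 on 2. These too passed the detection filter only with the Δ3/Δ3 arrays, whereas Pramel17 passed it on the 3 Lox/Δ3 arrays. For this reason, and since the families were chosen with this contrast known, these counts are given only as a description. The probes that rose belong to Omt2a (2 probes), Omt2b, Nlrp4c, Pramel14 and Pramel30.

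**Figure D3:**
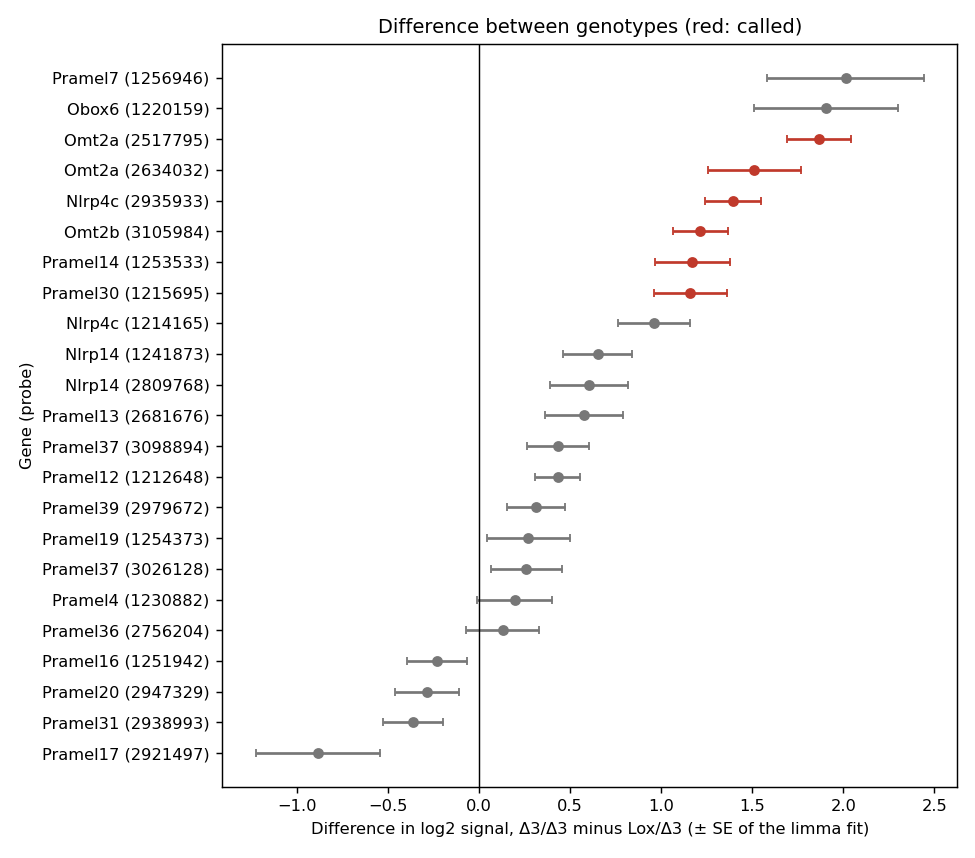
Difference in log2 signal, Δ3/Δ3 minus Lox/Δ3, for the 23 tested probes, with bars of 1 SE from the limma fit over 3 arrays a genotype; red points passed the call. Pramel7 and Obox6 have the largest differences (2.01 and 1.91) and the widest bars and were not called, and the 4 probes at the lower end are all of Pramel genes.

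The Omt2 genes, neighbours on chromosome 9, went from background to detection. The first probe of Omt2a (ILMN_2517795) read 169, 147 and 152 raw units on the Δ3/Δ3 arrays and 60.4, 83.2 and 72.0 on the Lox/Δ3 arrays. All Δ3/Δ3 values lay above all Lox/Δ3 values, and the probe was detected on every Δ3/Δ3 array and on no Lox/Δ3 array. On the background-corrected scale its signal was at least 2.52-fold higher in Δ3/Δ3 cells (measured means 6.79 ± 0.091 and 4.93 ± 0.32 log2, SD, n = 3 each; limma adjusted p = 0.0187), the bound being taken against the dimmest detected probe of each control array. The second probe of Omt2a (ILMN_2634032) read 167, 146 and 119 units against 68.8, 93.6 and 73.4, was detected on 1 Lox/Δ3 array and rose by 1.51 ± 0.26 (SE) on the log2 scale (limma adjusted p = 0.0401). Both probes of this gene thus showed the same split of the arrays.

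Omt2b had 1 tested probe (ILMN_3105984), at 131, 111 and 110 units in Δ3/Δ3 and 68.2, 76.9 and 75.6 in Lox/Δ3 cells. No Lox/Δ3 array detected it, and on the same scale its signal was at least 1.61-fold higher in Δ3/Δ3 cells (limma adjusted p = 0.0301). Its other probe (ILMN_1228818) was detected on no array. Omt2a and Omt2b are related, so a probe of one may also bind the transcript of the other; probe sequences were not used here. In the RefSeq order Omt2b is followed by Gsta2, whose probe was not tested, then by Dppa5a (a stem cell marker) and Ooep (a subunit of the subcortical maternal complex), which differed by -0.11 ± 0.13 and -0.053 ± 0.16 (SE; limma adjusted p = 0.726 and 0.912). Where a neighbour had more than 1 tested probe, the one with the smallest p is given. Neither of the latter was called, and whether they differ from the Omt2 pair was not tested. Omt2b was no longer called without Lox/Δ3 replicate 1 or replicate 2 (limma adjusted p = 0.0509 and 0.0504), and the second Omt2a probe without replicate 1 (0.102). These sizes depend on the background correction: without it the log2 differences were 1.17 and 0.92 for the first and second Omt2a probe, in place of 1.87 and 1.51, and 0.71 for Omt2b in place of 1.21. The value of 1.17 lies below the bound given above, and the second Omt2a probe was then not called (limma adjusted p = 0.0547).

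Of the oocyte group of Nlrp genes, 2 of 12 were detected, Nlrp4c and Nlrp14. Nlrp4c had its main probe (ILMN_2935933) at 896, 691 and 821 units in Δ3/Δ3 and 337, 352 and 389 in Lox/Δ3 cells. It was detected on all 6 arrays with no overlap, and rose from 8.23 ± 0.25 to 9.62 ± 0.067 log2 (mean ± SD, n = 3), a difference of 1.40 ± 0.15 (SE; 2.63-fold; limma adjusted p = 0.0247). A dimmer probe of the gene (ILMN_1214165) read 117, 112 and 129 units against 72.8, 86.7 and 91.1. It did not overlap between genotypes either and was at 0.96 ± 0.20 (SE; limma adjusted p = 0.0634), short of the threshold. The remaining 2 Nlrp4c probes were detected on no array and read 43.9 to 64.3 raw units. Of the genes beside Nlrp4c on chromosome 7, Zfp787 was at 0.10 ± 0.33 (SE) and Zfp444 at -0.17 ± 0.26, while the vomeronasal receptor genes on the other side were not tested.

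Nlrp14, needed for fertility in mouse, was detected on all arrays with 2 of its 3 probes and was not called. ILMN_1241873 read 418, 326 and 317 units in Δ3/Δ3 and 247, 223 and 309 in Lox/Δ3 cells (difference 0.65 ± 0.19 SE; limma adjusted p = 0.140). ILMN_2809768 read 945, 854 and 720 against 555, 553 and 766 (0.60 ± 0.21; limma adjusted p = 0.211). In both probes Lox/Δ3 replicate 3 was close to the lowest Δ3/Δ3 array, and in the second it overlapped with that group. Without Lox/Δ3 replicate 3 the first probe was called (difference 0.84; limma adjusted p = 0.0466). Partners of the inflammasome Nlrp proteins were fixed as a list of 12 genes. Of these 4 were detected and none (0) called, among them Pycard, the adaptor of inflammasomes, at -0.18 (limma adjusted p = 0.519), and Gsdmd, the pore protein of pyroptosis, at 0.17, 0.19 and 0.15 over 3 probes (smallest limma adjusted p = 0.644).

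Obox6 was the 1 gene of its family with a tested probe. This homeobox gene is known to aid reprogramming to pluripotency in mouse cells. Its probe (ILMN_1220159) read 241, 466 and 434 units in Δ3/Δ3 and 110, 154 and 160 in Lox/Δ3 cells. Every Δ3/Δ3 array was above every Lox/Δ3 array, but the spread within each genotype was wide, with SDs of 0.72 and 0.62 log2. Its difference of 1.91 ± 0.40 (SE; 3.75-fold) was not called (limma adjusted p = 0.0634). Crxos, another homeobox gene that lies close to Obox6 on chromosome 7, was measured by a pair of probes: one rose by 1.36 ± 0.25 (SE; limma adjusted p = 0.0495) and the other was at 1.49 ± 0.31 (limma adjusted p = 0.0634). Between them, the probe of Crx was not tested, and on the far side Selenow was at 0.033 ± 0.26 (SE; limma adjusted p = 0.969).

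**Figure D4:**
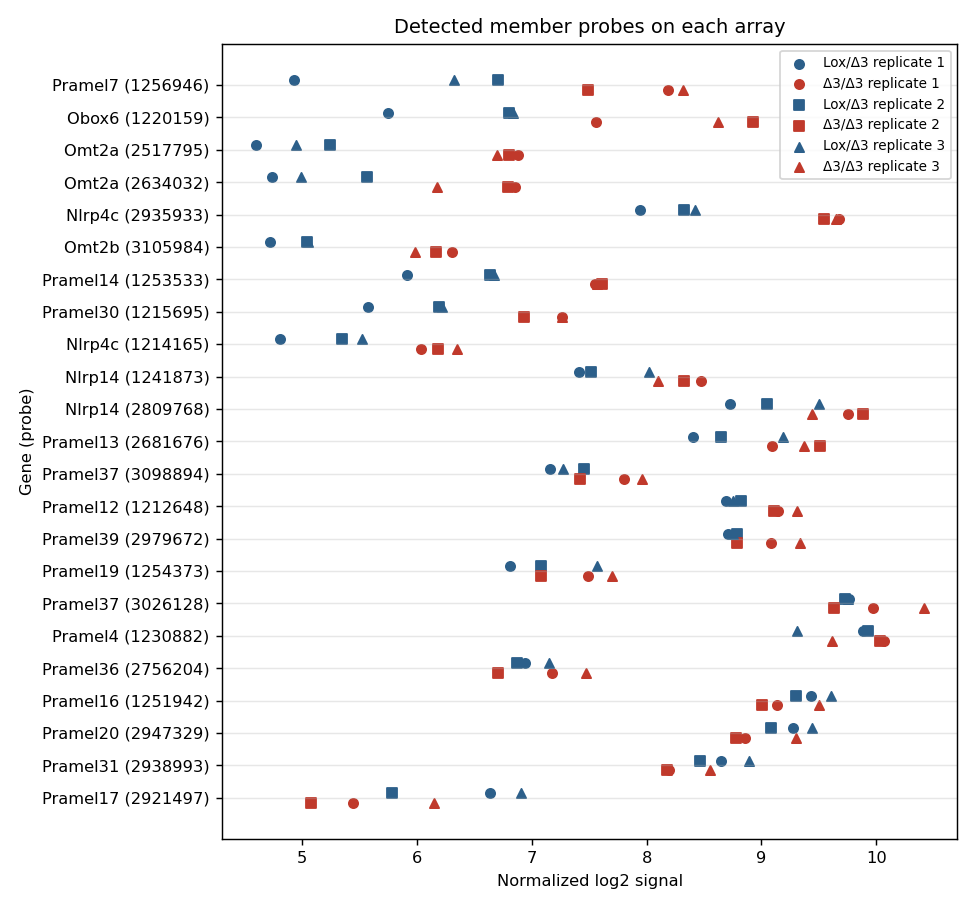
Normalized log2 signal of the 23 tested probes on each array, ordered by the difference between genotypes; red symbols are Δ3/Δ3 and blue symbols Lox/Δ3, and the symbol shape is the replicate number. For Omt2a, Omt2b, Nlrp4c, Pramel14 and Pramel30 the colours are apart, and for Pramel7, Obox6 and most of the other probes in the upper part the circle of Lox/Δ3 replicate 1 is the lowest point.

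In the Pramel family, 14 of 27 genes had a detected probe, 10 of them on chromosome 4, 3 on chromosome 5 and 1, Pramel7, on chromosome 2. Pramel14 read 240, 219 and 234 units in Δ3/Δ3 and 117, 142 and 148 in Lox/Δ3 cells. It rose from 6.41 ± 0.43 to 7.58 ± 0.032 log2 (mean ± SD, n = 3), a difference of 1.17 ± 0.21 (SE; 2.25-fold; limma adjusted p = 0.0434). Pramel30 read 206, 156 and 200 units against 103, 118 and 120 and rose by 1.16 ± 0.20 (SE; 2.23-fold; limma adjusted p = 0.0423). Neither gene overlapped between genotypes. The promoter windows of these genes are the near-identical pair shown above, and where the transcripts are as alike, the probes may measure the same RNA.

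Pramel7, whose promoter window is the third of that group, had the largest difference of any member. Its probe read 349, 204 and 362 units in Δ3/Δ3 and 78.3, 147 and 126 in Lox/Δ3 cells, and was detected on all arrays but Lox/Δ3 replicate 1. The genotypes did not overlap, but the SD among the Lox/Δ3 arrays was 0.94 log2, and the difference of 2.01 ± 0.43 (SE; 4.03-fold) was not called (limma adjusted p = 0.0675). Without Lox/Δ3 replicate 1 it was 1.47. Pramel6, the gene next to Pramel7, was detected on no array, with 62.4 to 69.8 raw units. The genes beside Pramel14 and Pramel30 on chromosome 4 differed less: Pramel16 was at -0.23, Pramel4 at 0.20, Pramel31 at -0.36 and Pramel13 at 0.58 (limma adjusted p from 0.230 to 0.696). Pramel14 and Pramel30 were no longer called without Lox/Δ3 replicate 1 (limma adjusted p = 0.0625 and 0.0762), without Lox/Δ3 replicate 2 (0.0632 and 0.0635) or with cyclic loess normalization (0.0544 and 0.0510).

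Of the remaining Pramel probes none (0) was called. Pramel12 stood nearest, at 636, 520 and 661 units against 545, 481 and 474, with no overlap after normalization (0.43 ± 0.12 SE; limma adjusted p = 0.135). Pramel13 was at 615, 676 and 687 units against 451, 429 and 627, where Lox/Δ3 replicate 3 reached the Δ3/Δ3 range (limma adjusted p = 0.230). Pramel4 and the Pramel37 probe ILMN_3026128 spanned 676 to 1208 and 728 to 1347 units over the 6 arrays, with differences of 0.20 ± 0.21 and 0.26 ± 0.19 (SE). On chromosome 5, the other Pramel37 probe, Pramel39 and Pramel36 were at 0.44, 0.31 and 0.13 (limma adjusted p from 0.250 to 0.808), and Pramel19 was at 0.27 (0.615). In the chromosome 5 probes Δ3/Δ3 replicate 2 was the lowest array of its genotype and replicate 3 the highest, and the groups overlapped.

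The other 4 Pramel genes had a lower mean in Δ3/Δ3 cells, without a call. Pramel16 read 634, 488 and 745 units in Δ3/Δ3 and 886, 655 and 819 in Lox/Δ3 cells (-0.23 ± 0.16 SE; limma adjusted p = 0.540). Pramel20 read 531, 428 and 659 against 800, 565 and 733 (-0.28 ± 0.18; limma adjusted p = 0.479). Pramel31 read 350, 299 and 418 against 530, 383 and 518 (-0.36 ± 0.17; limma adjusted p = 0.324). In all 3, replicate 2 gave the lowest value of its genotype after normalization and replicate 3 the highest, and the groups overlapped. Pramel17 had the largest of these 4 differences, at 93.2, 74.3 and 118 units against 161, 101 and 166. It was detected on 1 Δ3/Δ3 array and on all Lox/Δ3 arrays (-0.88 ± 0.34; limma adjusted p = 0.242). Set beside the promoter windows, Pramel7, Pramel14 and Pramel30 had differences between 1.16 and 2.01, Pramel20 and Pramel31 of -0.28 and -0.36, and Pramel37 and Pramel39 of 0.26, 0.44 and 0.31. Pramel4 and Pramel17, whose windows are also alike, had differences of opposite sign. The next closest windows to the first group were those of Pramel19 and Pramel16, with differences of 0.27 and -0.23. Pramel19 matched Pramel7 at 183 of 271 aligned bases, and Pramel16 matched Pramel30 at 156 of 239. Whether likeness of windows goes with the differences was not tested.

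**Figure D5:**
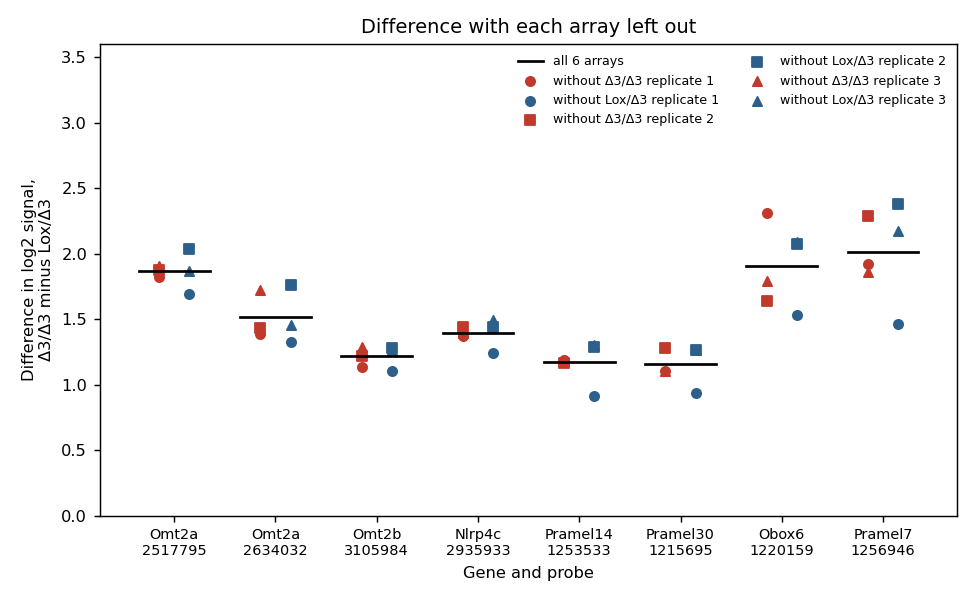
Difference in log2 signal, Δ3/Δ3 minus Lox/Δ3, for the 6 called probes and for Obox6 and Pramel7, with all 6 arrays (black line) and with each array left out (symbols). Every value is above 0.9, and for all 8 probes the value without Lox/Δ3 replicate 1 (blue circle) is the lowest; for Pramel7 it is 1.47 against 2.01 with all arrays.

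Lox/Δ3 replicate 1 moved many of these values. Of the 23 tested probes, 16 had their lowest Lox/Δ3 value on replicate 1, the array with the fewest detected probes. Without it, the main Nlrp4c probe and the first Omt2a probe stayed called (differences 1.24 and 1.69; limma adjusted p = 0.0355 and 0.0223), and the Obox6 difference was 1.53 in place of 1.91. Without any 1 of the Δ3/Δ3 arrays no probe (0 of 19652) passed limma's adjusted threshold, while 2613 to 3109 had an unadjusted p under 0.05, among them 12 to 16 member probes. Under these fits the differences of the 6 called probes lay between 1.11 and 1.91.

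Other oocyte and embryo genes, from lists fixed with earlier results of these data known, gave no call (0) apart from Omt2a and Omt2b. Of the subcortical maternal complex and maternal effect partners, 5 of 11 genes with a probe were detected and none (0) was called. Dppa3, a maternal factor that also marks naive stem cells, was at 2.48 ± 0.57 (SE; limma adjusted p = 0.0797). Its probe read 2001, 1695 and 1867 raw units in Δ3/Δ3 and 180, 744 and 507 in Lox/Δ3 cells. The SD among the Lox/Δ3 arrays was 1.39 log2, with replicate 1 the lowest. Padi6, needed for the cytoplasmic lattices of the oocyte, was detected in Δ3/Δ3 cells alone, at a background-corrected level at least 1.56-fold higher that was not called (limma adjusted p = 0.0863). Its probe read 144, 99.7 and 107 raw units against 70.5, 87.4 and 83.0, and the bound applies to the background-corrected scale alone. Ooep, Khdc3 and Tle6 differed by -0.053, -0.16 and -0.011. The median of the 5 probes was -0.011. Of the egg coat, oocyte transcription and growth factor list, 6 of 13 genes were detected and none (0) called, with Sohlh1 at -0.52 and -0.40 over 2 probes (limma adjusted p = 0.175 and 0.230), Gdf9 at 0.65 (0.200) and a median of -0.034. Of 15 other oocyte and egg genes with a probe, 6 were detected, and the 3 called probes were those of the members Omt2a and Omt2b. The list's median over 11 probes, these included, was 0.10, and 8 of the 11 were higher. Accsl was at -1.17 and -1.14 (limma adjusted p = 0.229 and 0.201) and Tcl1 at 0.51 and 0.56 (0.175 and 0.135).

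Of 11 markers that define oocytes, Zp1, Zp2, Nobox, Oosp1 and Mos were detected on no array, Bmp15 was detected on 1, and 5 genes were tested. Of their 6 probes 3 had positive differences, the median was 0.030 and none (0) was called. Ddx4 was at -0.51 and -0.37 (limma adjusted p = 0.0995 and 0.207), Gdf9 at 0.65 (0.200), Zp3 and Dazl at 0.23 each and Figla at -0.17. The summed raw signal of the list's 14 probes spanned 2525 to 2914 in Δ3/Δ3 and 2145 to 3149 in Lox/Δ3 cells. Much of it came from 1 Dazl probe, which read 1411 to 1695 and 1033 to 1921 units. In the two-cell stage list 3 of 10 tested probes had positive differences, those of Pramel7 (2.01), Gm428 (0.23) and Tdpoz3 (0.036). With Pramel7 included the median was -0.43, Arg2 was at -1.20 (limma adjusted p = 0.0566), and none (0) was called. Its summed signal spanned 6514 to 11410 in Δ3/Δ3 and 8829 to 14713 in Lox/Δ3 cells. None (0) of the tested probes for fibroblast, primitive endoderm or trophectoderm markers was called, and members of each list differed in sign. Of 3 fibroblast probes (median 0.62), Thy1 was at 1.61 (limma adjusted p = 0.0505), Vim at 0.62 and Col1a1 at -0.67, while Col1a2, Col3a1, Dcn, Lum and Postn were not detected. Of 12 primitive endoderm probes (median -0.29), 4 had positive differences. Sox7 was at -0.43 and -1.09, Gata4 at -0.27, Gata6 at -0.51, Lama1 at -0.71, Col4a1 at -0.52, Pdgfra at -0.30, Sox17 at -0.036 and 0.088, and Dab2 at 0.42, 0.44 and 0.55. Of 8 trophectoderm probes (median 0.58), 5 had positive differences. Tfap2c was at 0.90, 0.87 and 0.89, Gata3 at 0.72 and Eomes at 0.44, and the keratin genes Krt7, Krt8 and Krt18 were at -0.73, -0.71 and -0.31 (limma adjusted p = 0.155 for Eomes and 0.156 for Krt7). No myeloid marker probe (0 of 14) was detected often enough to be tested. Summed signals of the fibroblast list spanned 3877 to 4833 in Δ3/Δ3 and 2731 to 3916 in Lox/Δ3 cells, those of the primitive endoderm list 5258 to 7150 and 4847 to 17035, and those of the trophectoderm list 11070 to 12378 and 10603 to 13554. The ES cell list (19 tested probes) had a median of -0.025, with Utf1 at -0.41 and Pou5f1 at -0.22 and -0.25, and no call (0). The part of these other markers in the member differences was not tested.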

How the data were processed

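The authors deposited intensity values that were not normalized, on a linear scale, with a detection p-value beside each signal. The p-value columns carry no sample name, and each was tied to the array whose signals it orders without a rank violation (0 against at least 15232 for any other array). The authors' deposited value table holds the same intensities times 1 constant per array, from 11.9 to 13.6. The scanner software is not given in the sources used here.

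Probes were named from the platform annotation, updated through RefSeq genes, which matched 34862 of 34885 single-symbol probes. All members carried a family name in their symbol. Neither table names a genome build, so gene coordinates are given only for RefSeq promoter windows. Background was corrected by limma's nec function (offset 16, from the detection p-values), quantile normalized and taken to log2. Probes detected (p under 0.05) on at least 3 of 6 arrays were tested one by one with lmFit and eBayes, two-sided, genotype as the single term, with Benjamini-Hochberg adjustment over all 19652 kept probes, because the members are probes. The offset understates changes of dim probes. The steps were tested on simulated data. Every tested member was named, and from each of 11 other lists the called genes or otherwise those with the smallest p. The other tested oocyte-defining, fibroblast, primitive endoderm and trophectoderm markers were added after their values were seen. So were the two-cell genes with positive differences, and Accsl and Tcl1. The members, lists and tests were chosen with earlier results of these data known. Promoter windows were aligned pair by pair (global, free end gaps). Alternatives were other background corrections, normalizations, filters, 1 probe per gene, array weights, the replicate block and leaving out each array. R 4.3.3, limma 3.58.1, Python 3.11.15 and matplotlib 3.10.9 were used.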

Additional observations from a re-analysis of the deposited data

How the results depend on the processing

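The 6 called member probes, of 226 called probes in all, became 5 of 181 with no background correction (the second Omt2a probe was lost), 6 of 200 with an offset of 50, 4 of 179 with cyclic loess, 6 of 225 with the authors' values and 6 of 207 with a detection p under 0.01. With no filter on dim probes 7 probes were called and none (0) of the 78 members. In that fit 16 members had an unadjusted limma p under 0.05, as had 5325 of all 45281 probes. With 1 probe per gene 140 genes were called, among them 5 members. With array weights 572 probes were called, 9 of them members. Leaving out 1 array gave 0 to 401 called probes and 0 to 8 called members, and the 8 came without Lox/Δ3 replicate 3. The number of tested members was 23 with a detection p under 0.01 and 21 to 23 with an array left out. Same-numbered arrays of the genotypes deviated together with r = 0.35, 0.055 and 0.37 across probes, and differently numbered arrays with r from -0.50 to 0.28. Whether the replicate numbers pair the samples was not tested. With the replicate block 570 probes and 8 members were called, Obox6 and the dimmer Nlrp4c probe being the added members (limma adjusted p = 0.0171 and 0.0235). Pramel17, at -0.88, had a limma adjusted p of 0.0303 in that fit and was not called for its overlap. Directions of the 23 probes were kept in every alternative except for Pramel36, at -0.049 without Δ3/Δ3 replicate 3 (range over arrays left out -0.049 to 0.34), and Pramel4, at -0.00085 without Lox/Δ3 replicate 3. The cause of these shifts was not tested. Signal over background limits the Omt2 probes and most members, which were measured near or below the detection limit.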
